A study of Mus musculus with 2 samples.

Results

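The transcripts described here encode 3 cytokines known to promote inflammation of the colon, interferon gamma (Ifng), granulocyte-macrophage colony-stimulating factor (Csf2) and tumour necrosis factor (Tnf). They were taken by name from a table of 11971 genes, and all 3 of 3 passed the filter on low counts in the sums over all cells. CD4 T cells had been transferred into Rag-/- mice, which make no mature lymphocytes of their own, and colonic TCRb+CD4+ cells were then sorted for single-cell RNA sequencing. There were 6 recipients of BCL-6 deficient CD4+ T cells, called KO-labelled recipients, and 6 recipients of cells labelled WT, which the design text gives as naïve, or as CD4+ cells that were CD45RBhigh and CD25-, called WT-labelled recipients. No such sort is given for the BCL-6 deficient cells, so effects of the deletion and of the donor population cannot be told apart. Cells of each mouse carried a hashtag antibody and were pooled into 1 library of 5′ chemistry. The Cre driver or germline nature of the Bcl6 deletion, the deleted exons, the number of donors and the ages of the mice are not given in the sources used here.

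Ifng is the signature product of type 1 helper and cytotoxic T cells and activates macrophages and epithelium through its receptor. Csf2 is made by activated T cells, in particular those that have seen interleukin 1 or interleukin 23, and recruits and activates myeloid cells. Tnf is made soon after T cell receptor stimulation and signals through NF-kB. All of these messages are short-lived, because AU-rich elements in their 3′ untranslated regions bind proteins such as tristetraprolin that trigger decay. BCL-6, in which the KO-labelled donor cells are described as deficient, is a transcriptional repressor needed by follicular helper T cells.

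The table held 18860 cells of 12 mice, with 1409 to 1736 cells and 4252124 to 5523025 UMIs (unique molecular identifiers, one per captured transcript molecule) in each mouse. Median UMIs per cell were 2381 to 2997 in KO-labelled recipients and 2864 to 3102.5 in WT-labelled recipients, and no barcode occurred more than once. Bcl6 itself stood at 65.8 to 91.3 CPM (UMI counts scaled to the same total in every mouse or cluster) in KO-labelled recipients and 48.4 to 69.6 CPM in WT-labelled recipients, a log2 fold change of 0.48 ± 0.10 (SE, edgeR adjusted p = 0.00398), and the deleted exons are not known, so its count does not check the labels, and directions refer to the deposited labels. The authors' clusters were used as deposited, with their clusters 1 and 3, which carry no subset name, called unnamed 1 and unnamed 3. Foxp3 (454 CPM in regulatory cells), Il17a (978 CPM in Th17 cells), Gzmk (344 CPM in cytotoxic cells) and Mki67 (879.2 CPM in cycling cells) were in the clusters named for them. Of the other cytotoxic genes, Gzmb was higher in regulatory cells, at 4951 CPM, than in cytotoxic cells, at 1604 CPM. The recirculating cluster had S1pr1 at 125 CPM, against 67.5 CPM in regulatory cells, but Ccr7 at 92.4 CPM, against 718 CPM in regulatory cells.

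The genes lie on different chromosomes (GRCm38, GENCODE vM21). Ifng spans chr10:118441046-118445892 on the plus strand, Csf2 chr11:54247271-54249667 on the minus strand and Tnf chr17:35199381-35202007 on the minus strand. The 30 bases of each 3′ untranslated region with the most copies of the pentamer ATTTA are shown because this AU-rich element is the feature of regulation that the 3 genes share. Copies are in capitals, and the transcript strand is given as DNA, 5′ to 3′.
Ifng, chr10:118445330-118445359, plus strand: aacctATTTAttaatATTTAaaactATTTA
Csf2, chr11:54247329-54247358, minus strand: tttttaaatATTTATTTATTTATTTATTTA
Tnf, chr17:35199679-35199708, minus strand: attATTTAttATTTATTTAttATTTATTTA
Counted on the transcript strand with overlaps allowed, ATTTA occurred 6 times in the 631 bases of the Ifng 3′ untranslated region, 9 times in the 317 bases of Csf2 and 8 times in the 764 bases of Tnf. At least 1 copy was found in 69.0% of 10808 genes of the table that had such a region, and as many as in Ifng, Csf2 and Tnf in 17.4%, 8.57% and 10.7%. The longer TATTTAT, each copy of which holds an ATTTA, occurred 4 times in Ifng, 9 times in Csf2 and 8 times in Tnf, and as many were found in 1.46%, 0.0555% and 0.1203% of genes. The Csf2 and Tnf windows are chains of overlapping or near-adjacent copies, whereas those of Ifng stand apart. A match describes the letters and not a used site.

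Over all cells, Csf2 was higher in KO-labelled recipients, while the differences of Ifng and Tnf did not pass the test. Csf2 stood at 104, 92.4, 186, 202, 94.1 and 124 CPM in mice KO1 to KO6, against 56.4, 63.2, 118, 58.5, 52.0 and 45.2 CPM in mice WT1 to WT6. Of the 6 WT-labelled recipients, 5 were below every KO-labelled recipient, and mouse WT3 lay within the range of the KO-labelled recipients. The means were 134 ± 48.3 CPM and 65.6 ± 26.5 CPM (SD, n = 6 each), a log2 fold change of 0.99 ± 0.24 (SE, edgeR quasi-likelihood test, adjusted p = 0.0107), in a comparison that called 14.2% of 9861 genes. It was 1.08 with each cluster counted at the same weight in all mice (adjusted p = 0.00646), a fit that called 9.74% of 9869 genes.

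Ifng stood at 1163, 635, 661, 1232, 1082 and 632 CPM in mice KO1 to KO6, against 771, 654, 556, 721, 707 and 485 CPM in mice WT1 to WT6. Mice KO1, KO4 and KO5 were above every WT-labelled recipient, and the other 3 lay among them. Its log2 fold change, 0.43 ± 0.17 (SE), did not pass (adjusted p = 0.115 by edgeR). The difference passed without mouse KO6, at 0.52 with an adjusted p of 0.0393, and it was 0.08 (adjusted p = 0.817) at equal cluster weights.

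Tnf stood at 49.2 to 80.3 CPM in KO-labelled recipients with a median of 59.1 CPM, against 50.9 to 73.2 CPM in WT-labelled recipients with a median of 63.4 CPM. The ranges were nearly the same. Its log2 fold change, -0.07 ± 0.12 (SE), did not pass (adjusted p = 0.763 by edgeR).

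**Figure D1:**
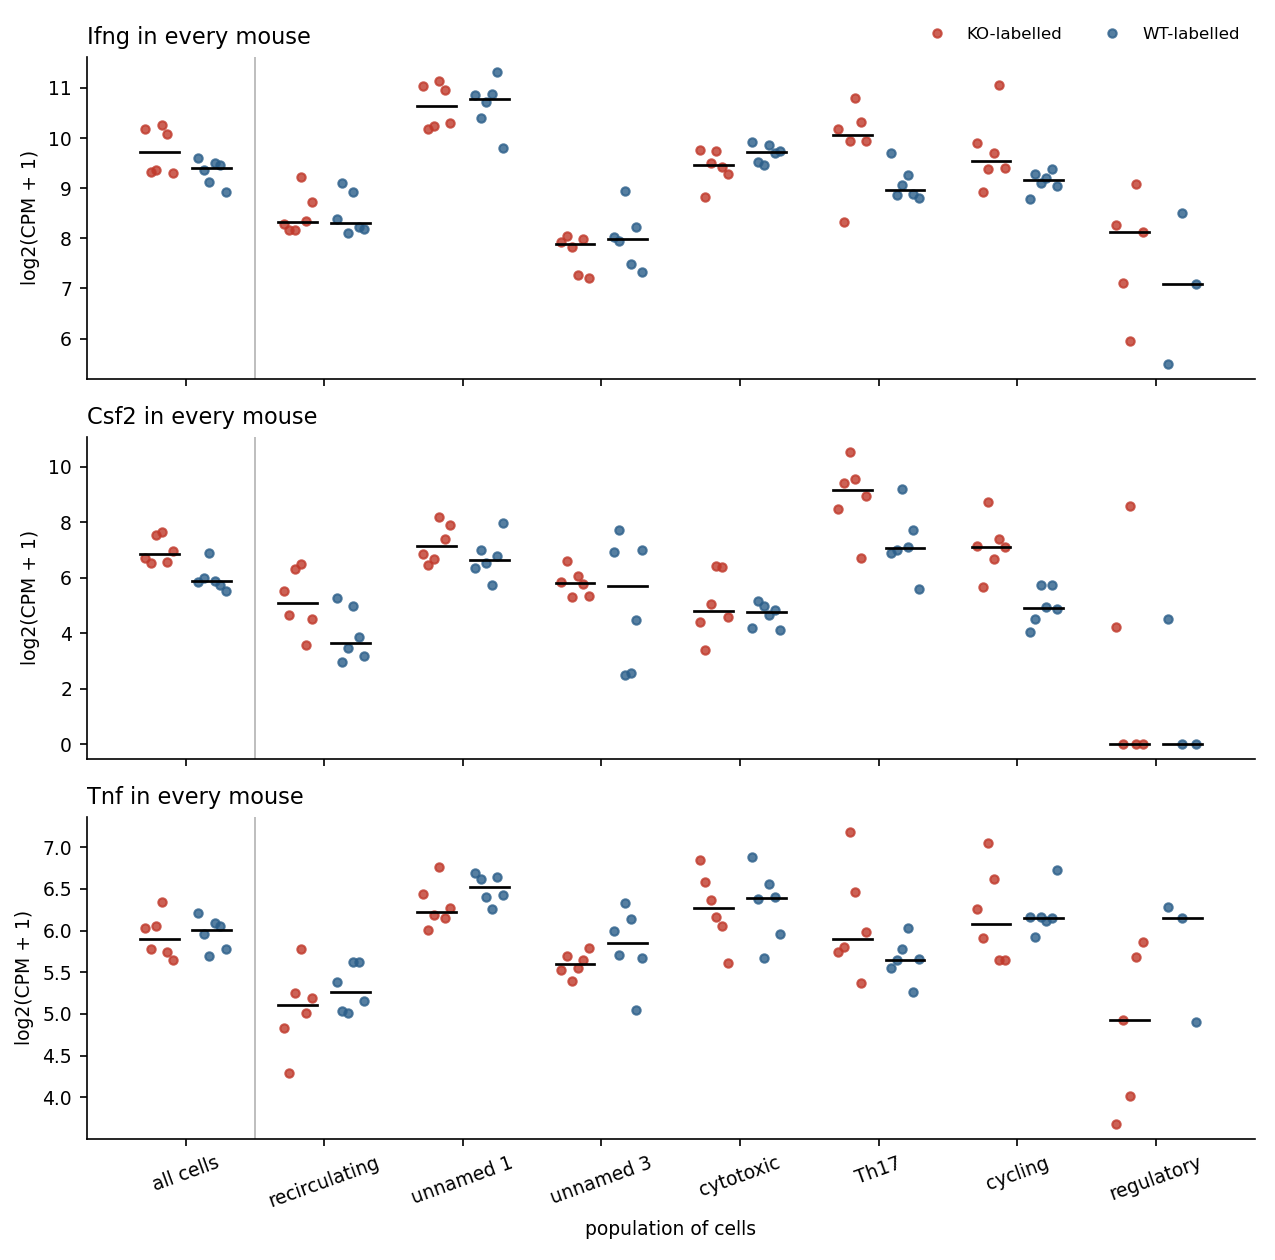
Level of each gene, log2(CPM + 1), in all cells and in each cluster (x axis), with 1 point per mouse that had at least 20 cells there, KO-labelled left of WT-labelled, and a bar at the median. Ifng is highest in unnamed 1 in both genotypes, and Csf2 in Th17 cells of KO-labelled recipients spreads from 105 to 1497 CPM.

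The order of clusters differed between the cytokines. Unnamed 1 had the highest mean level of Ifng and of Tnf, and Th17 cells that of Csf2. Because the clusters were made from the expression of the same cells, these orders are descriptions without a test. Each gene is compared across clusters, and the levels of different genes are not compared with each other. Ifng was highest in unnamed 1 in 11 of 12 mice, at 1681 ± 506 CPM (SD, n = 12 mice), the exception being mouse KO5, in which cycling cells were higher. Next came Th17 cells at 820 ± 431 CPM, cytotoxic cells at 767 ± 145 CPM and cycling cells at 759 ± 451 CPM. These 3 could not be ordered, Th17 cells being above cytotoxic cells in 5 of 12 mice and cytotoxic above cycling cells in 8. Recirculating cells followed at 372 ± 113 CPM, below cycling cells in 12 of 12 mice, then unnamed 3 at 243 ± 92.3 CPM and regulatory cells at 208 ± 170 CPM, a mean that includes mice with fewer than 20 of these cells.

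Csf2 had another order, with Th17 cells first at 426 ± 417 CPM (SD, n = 12 mice). They were the highest cluster in 8 of 12 mice, 5 of them KO-labelled recipients and 3 WT-labelled. Unnamed 1 followed at 143 ± 76.7 CPM and was above cycling cells, at 102 ± 115 CPM, in 10 of 12 mice. The lowest means were those of cytotoxic cells at 33.6 ± 24.7 CPM and recirculating cells at 31.4 ± 27.6 CPM, with either of them higher in 6 of 12 mice. Regulatory cells, few in number, had a mean of 39.1 ± 107.7 CPM that rested on mouse KO4 at 379 CPM, with no Csf2 UMI in 7 of 12 mice. Tnf varied least between clusters, between 84.7 ± 14.02 CPM in unnamed 1 and 36.6 ± 9.97 CPM in recirculating cells. No cluster had the highest Tnf level in more than 4 of 12 mice, and neighbours at the top of the order exceeded each other in 5 to 7 of 12.

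The genotypes differed in which clusters supplied the transcripts, and their cluster sizes differed too. Unnamed 1 held 57.5% ± 15.99 of the Ifng UMIs in KO-labelled recipients and 19.4% ± 5.21 in WT-labelled recipients (SD, n = 6 each), and cytotoxic cells held 5.86% ± 3.45 and 34.4% ± 5.54. The ranges did not overlap for either cluster, being 28.7% to 73.9% and 10.1% to 24.3% for unnamed 1. For Tnf the same shift was seen, with 40.1% ± 11.2 against 11.1% ± 3.31 in unnamed 1 and 8.18% ± 2.83 against 34.6% ± 9.92 in cytotoxic cells. Of the Csf2 UMIs, Th17 cells held 28.3% ± 16.8 in KO-labelled recipients and 50.1% ± 18.4 in WT-labelled recipients, and unnamed 1 held 38.1% ± 14.4 and 15.0% ± 9.45. In cell number, unnamed 1 made up 32.6% ± 8.71 and 8.37% ± 2.25 of cells, cytotoxic cells 8.63% ± 4.52 and 33.2% ± 6.77, and Th17 cells 5.83% ± 2.78 and 18.01% ± 5.98.

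**Figure D2:**
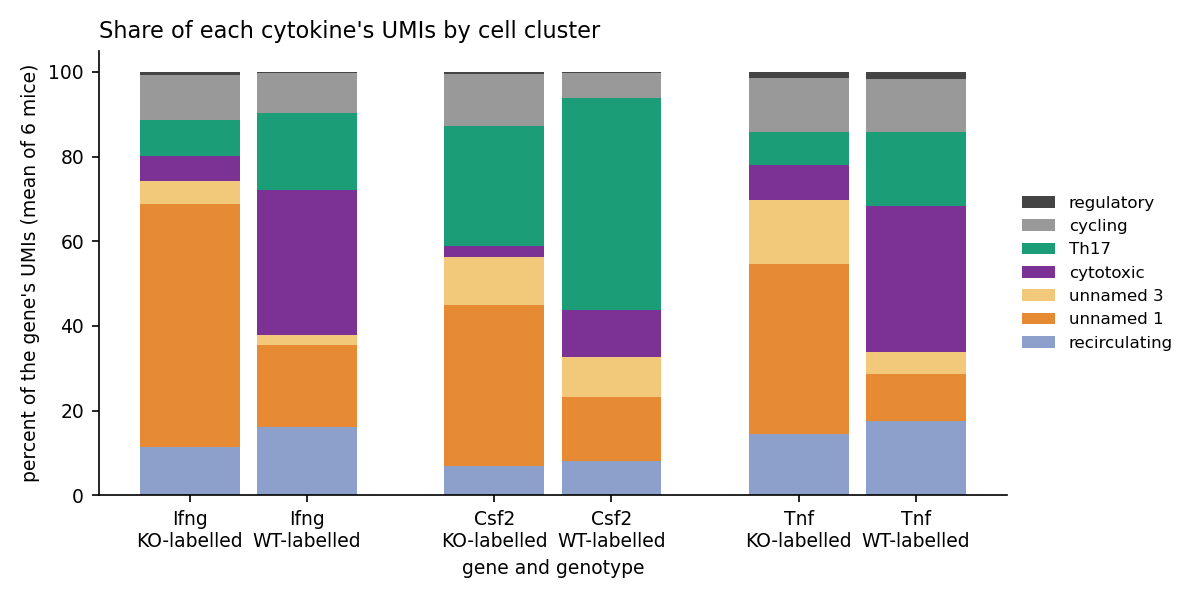
Percent of each gene's UMIs that came from each cluster (y axis), as the mean of 6 mice, for KO-labelled recipients and WT-labelled recipients (x axis). Unnamed 1 supplies 57.5% of Ifng in KO-labelled recipients and 19.4% in WT-labelled recipients, and cytotoxic cells 5.86% and 34.4%.

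Within clusters, both Ifng and Csf2 were higher in Th17 cells of KO-labelled recipients, and Csf2 was also higher in cycling cells. Ifng in Th17 cells stood at 1153, 321, 980, 1772, 1277 and 985 CPM in mice KO1 to KO6, against 826, 463, 532, 614, 470 and 446 CPM in mice WT1 to WT6. In 5 of 6 KO-labelled recipients it was above every WT-labelled recipient, and mouse KO2, with 44 Th17 cells, was below them all. The log2 fold change was 0.94 ± 0.20 (SE, edgeR adjusted p = 0.00579), where 5.09% of genes tested in Th17 cells were called. The call was lost with the DESeq2 test, at 0.92 and an adjusted p of 0.0717.

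Csf2 in Th17 cells stood at 354, 674, 1497, 747, 105 and 496 CPM in mice KO1 to KO6, against 117, 128, 592, 138, 211 and 47.2 CPM in mice WT1 to WT6. The groups overlapped, with 3 of 6 KO-labelled recipients above every WT-labelled recipient. The log2 fold change was 1.68 ± 0.46 (SE, edgeR adjusted p = 0.0310). The call was lost with the DESeq2 test (1.64, adjusted p = 0.166) and when any of 7 mice was left out, at 1.22 (adjusted p = 0.153) without mouse KO3 and at 1.45 to 1.70 without mouse KO4 or mouse WT1, 2, 4, 5 or 6. It was 2.37 (adjusted p = 0.000632) without mouse WT3. Tnf in Th17 cells was at 40.4 to 145 CPM in KO-labelled recipients and 37.5 to 64.2 CPM in WT-labelled recipients, a log2 fold change of 0.51 ± 0.22 (SE, adjusted p = 0.232 by edgeR) that was 0.22 without mouse KO3.

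In cycling cells, which express the proliferation gene Mki67, Csf2 was at 50.1 to 428 CPM in KO-labelled recipients with a median of 138 CPM, against 15.6 to 52.4 CPM in WT-labelled recipients with a median of 28.8 CPM. The KO-labelled recipients other than mouse KO2 were above every WT-labelled recipient. The log2 fold change was 2.11 ± 0.38 (SE, edgeR adjusted p = 0.000837), with 5.36% of genes called in these cells, and it was 1.68 to 2.30 with each mouse left out in turn, always past the threshold. Cycling cells were the deepest, with median UMIs per cell of 4787 in KO-labelled recipients and 5595 in WT-labelled recipients. Ifng there was at 483 to 2117 CPM in KO-labelled recipients and 441 to 662 CPM in WT-labelled recipients, with 5 of 6 KO-labelled recipients above every WT-labelled recipient, and did not pass (log2 fold change 0.69 ± 0.23, SE, edgeR adjusted p = 0.0854). It passed without mouse KO2 (0.83, adjusted p = 0.0192), without mouse KO6 (0.78, adjusted p = 0.0387) and with no filter on low counts (0.70, adjusted p = 0.0214), and it was 0.31 (adjusted p = 0.237) without mouse KO5.

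In the other clusters no member passed. Ifng in unnamed 1, where it was highest, was at 1162 to 2239 CPM in KO-labelled recipients with a median of 1627 CPM, against 895 to 2567 CPM in WT-labelled recipients with a median of 1761 CPM, a log2 fold change of -0.10 ± 0.18 (SE, edgeR adjusted p = 0.873, with 4.65% of genes called). The ranges overlapped almost fully. In cytotoxic cells Ifng was at 454 to 862 CPM in KO-labelled recipients, against 700.04 to 975 CPM in WT-labelled recipients (-0.29 ± 0.10, SE, edgeR adjusted p = 0.155, with 2.89% called). In unnamed 3 it was at 146 to 265 CPM and 160 to 490 CPM (-0.32 ± 0.18, SE, edgeR adjusted p = 0.359, with 8.42% called), and in recirculating cells at 287 to 596 CPM and 273 to 552 CPM (-0.02 ± 0.17, SE, edgeR adjusted p = 0.985, with 5.48% called). Without the filter on low counts the cytotoxic difference passed (-0.35, adjusted p = 0.0469). In regulatory cells, with at least 20 cells in 5 KO-labelled recipients and 3 WT-labelled recipients, Ifng was at 60.7 to 544 CPM and 43.9 to 364 CPM (0.58 ± 0.51, SE, edgeR adjusted p = 0.734, with 0.513% called).

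For Csf2 the log2 fold change was 1.32 ± 0.41 in recirculating cells (SE, edgeR adjusted p = 0.0616), 0.92 ± 0.30 in cytotoxic cells (adjusted p = 0.0990), 0.47 ± 0.30 in unnamed 1 (adjusted p = 0.478) and -0.64 ± 0.38 in unnamed 3 (adjusted p = 0.389). The recirculating difference passed without mouse KO5 or 6, without mouse WT1 or 4, and with no filter on low counts, at 1.32 to 1.68. With each mouse left out in turn, that difference ran from 0.96 to 1.68, at edgeR adjusted p values of 0.0122 to 0.223. The cytotoxic one passed without mouse KO6, at 1.11 (adjusted p = 0.0433), and was 0.51 (adjusted p = 0.532) without mouse KO4. That of unnamed 1 was 0.23 without mouse KO4, 0.31 without mouse WT4 and 0.78 without mouse WT6, and that of unnamed 3 was -0.18 without mouse WT2, with adjusted p values of 0.158 to 0.889. In regulatory cells Csf2 and Tnf did not pass the filter on low counts, with 28 and 2 UMIs of Csf2 and 20 and 15 UMIs of Tnf in KO-labelled recipients and WT-labelled recipients. Tnf was at -0.29 to -0.15 in recirculating, unnamed 1, unnamed 3 and cytotoxic cells and at -0.04 in cycling cells, with adjusted p values of 0.371 to 0.955 by edgeR.

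**Figure D3:**
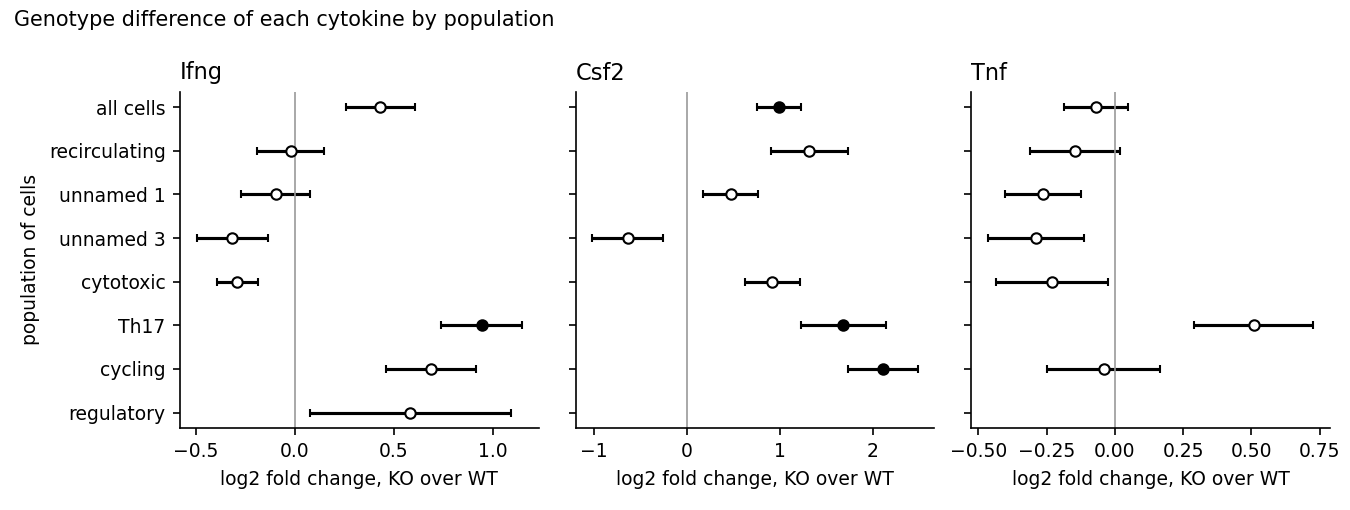
Log2 fold change of each gene, KO-labelled over WT-labelled (x axis, bars are SE), in all cells and in each cluster (y axis), filled where the edgeR adjusted p is under 0.05. Filled points are Csf2 in all cells (0.99), Th17 (1.68) and cycling cells (2.11), and Ifng in Th17 cells (0.94).

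Whether the genotype difference itself varied between clusters was tested in the 10 pairs of the 5 largest clusters, with limma on the difference of log2 CPM within each mouse. For Ifng, the difference in cytotoxic cells was lower than that in Th17 cells by a log2 value of -1.12 ± 0.19 (SE, n = 12 mice, limma adjusted p = 0.00859), in a pair where 0.671% of genes passed. It was -1.32 to -1.01 with each mouse left out in turn, and past the threshold each time. The contrast of unnamed 1 with Th17 cells was -0.86 ± 0.21 (limma adjusted p = 0.0543, with 0.476% of genes called). None of the other Ifng contrasts passed, at adjusted p values of 0.139 to 0.994. None of the 10 contrasts passed for Csf2 or for Tnf, with smallest limma adjusted p values of 0.491 and 0.307, so the genotype difference of Csf2 in Th17 cells is not shown to differ from that in the other 4 clusters tested. No such contrast was run for cycling or regulatory cells. In the remaining pairs, 0.0787%, 0.237%, 0.118% and 0.105% of genes passed for recirculating cells against unnamed 1, unnamed 3, cytotoxic and Th17 cells, 0.202% and 0.0149% for unnamed 1 against unnamed 3 and cytotoxic cells, and 0.166% and 0.734% for unnamed 3 against cytotoxic and Th17 cells.

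A higher level can come from more cells with a transcript or from more transcripts in each. To set depths equal, UMIs of each cell were drawn down (thinned) to 1500, leaving 9217 cells of KO-labelled recipients and 8745 of WT-labelled recipients. At least 1 Csf2 UMI was then found in 4.63% ± 1.24 of cells of KO-labelled recipients and 3.14% ± 0.511 of cells of WT-labelled recipients (SD, n = 6 each, p = 0.0260 by exact permutation, 0.0779 when adjusted over 3 genes). Unthinned, these shares were 6.36% and 4.78%. Thinned to 500 UMIs, the difference was 0.7001 percentage points (adjusted exact permutation p = 0.136). For Ifng they were 36.7% ± 5.07 and 35.2% ± 3.71 (exact permutation p = 0.604) and for Tnf 7.66% ± 1.11 and 7.58% ± 0.944 (exact permutation p = 0.887), and unthinned 47.2% and 47.8% for Ifng and 12.7% and 13.5% for Tnf. The sort held no population known to lack these genes. Free RNA can add UMIs to any cell, and the lowest Ifng share, in regulatory cells, was 18.2% in 4 KO-labelled recipients and 10.3% in 3 WT-labelled recipients, at median depths of 2453 and 2700 UMIs before thinning. Csf2 was found in 0.446% and 1.28% of these regulatory cells and Tnf in 5.92% and 10.6%.

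In Th17 cells, 49.996% ± 12.5 of cells of KO-labelled recipients and 33.1% ± 3.53 of cells of WT-labelled recipients had an Ifng UMI (exact permutation p = 0.0130, adjusted p = 0.0390 over 3 genes). It was 13.5 to 21.0 percentage points higher with each mouse left out in turn, at adjusted exact permutation p values of 0.00649 to 0.0844, the call being lost in 9 of 12 cases. For Csf2 the shares were 12.5% ± 2.80 and 7.83% ± 3.46 in Th17 cells (adjusted exact permutation p = 0.0487), 7.45% ± 2.78 and 3.36% ± 0.840 in cycling cells (adjusted p = 0.0455) and 2.94% ± 1.51 and 1.12% ± 0.447 in recirculating cells (adjusted p = 0.0455). Each of these Csf2 calls was lost when some single mice were left out, in 9, 11 and 9 of 12 cases. Without thinning, the adjusted exact permutation p was 0.153 in Th17 and 0.396 in cycling cells. Thinned to 500 UMIs, Csf2 was 3.20 percentage points higher in Th17 cells and 1.56 in cycling cells, with both calls lost (adjusted p = 0.162 and 0.597), while the recirculating call remained (adjusted p = 0.0325). In cytotoxic cells the Ifng share was 39.7% ± 5.82 in KO-labelled recipients and 47.0% ± 2.61 in WT-labelled recipients (exact permutation p = 0.0238, adjusted p = 0.0714). The difference passed without mouse KO1, at -9.34 percentage points (adjusted p = 0.00649), and was -1.85 percentage points at 500 UMIs (adjusted p = 0.738). The Tnf share in unnamed 1 was 9.66% ± 1.59 and 11.1% ± 2.53 (adjusted exact permutation p = 0.416). Thinned to 500 UMIs, that difference passed, at -2.55 percentage points (adjusted p = 0.0455). In Th17 cells the Tnf share was 8.53% ± 4.12 and 6.46% ± 1.95 (adjusted p = 0.299). Without mouse KO2 it was 3.33 percentage points higher (adjusted p = 0.0411).

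Cells with at least 1 UMI of a gene held 3.495 ± 0.760 Ifng UMIs on average in KO-labelled recipients and 2.76 ± 0.248 in WT-labelled recipients (SD, n = 6 each, thinned, p = 0.0455 by exact permutation, 0.136 when adjusted). It was 0.94 UMIs higher without mouse KO6, with an adjusted exact permutation p of 0.00649. For Csf2 the values were 3.83 ± 0.597 and 3.02 ± 1.27 UMIs (adjusted exact permutation p = 0.279), and 1.29 UMIs higher without mouse WT3 (adjusted p = 0.0195). For Tnf they were 1.24 ± 0.0626 and 1.27 ± 0.0742 UMIs (adjusted exact permutation p = 0.472). The share held by the top cells was counted without thinning and over all clusters together, so neither depth nor cluster makeup was set equal. Csf2 UMIs were found in few cells, 6.36% in KO-labelled recipients and 4.78% in WT-labelled recipients before thinning. For Ifng these shares were 47.2% and 47.8%, and for Tnf 12.7% and 13.5%. The top 1% of all cells is therefore a different part of the positive cells for each gene. The 1% of cells with most Csf2 held 68.8% ± 10.7 of its UMIs in KO-labelled recipients and 69.3% ± 6.55 in WT-labelled recipients. For Ifng the top 1% held more in KO-labelled recipients, 28.8% ± 3.35 against 21.0% ± 3.74 in WT-labelled recipients (exact permutation p = 0.00433, adjusted p = 0.0130 over 3 genes). For Tnf it held 20.8% ± 1.75 and 23.2% ± 3.92 (adjusted exact permutation p = 0.282). Before thinning, a single cell held up to 242 UMIs of Ifng, 324 of Csf2 and 34 of Tnf.

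In most positive cells 1 of the cytokines was detected, and the pairs are described here by counts, with no test of a ratio against 1. Even before thinning, 37.3% of Ifng-positive, 48.9% of Csf2-positive and 73.9% of Tnf-positive cells held only 1 UMI of the gene. A cell without a UMI may therefore still express the gene. To keep cluster makeup out of the comparison, the number of double-positive cells was set against the number expected from the 2 shares within each cluster of each mouse, after thinning. Ifng and Csf2 were found together in 223 cells of KO-labelled recipients, where 185 were expected, and in 124 cells of WT-labelled recipients, where 100.4 were expected, ratios of 1.21 and 1.23. The ratio was above 1 in 11 of 12 mice, the exception being mouse WT6 with 8 double-positive cells. Ifng and Tnf were found together in 326 cells against 280.02 expected in KO-labelled recipients and 290 against 251 in WT-labelled recipients, and 11 of 12 mice were above 1. Csf2 and Tnf shared 48 cells against 36.6 expected and 36 against 21.9, with 8 of 12 mice above 1.

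No difference of these ratios between genotypes passed, with differences in mean log2 ratio of 0.04 for Ifng and Csf2, 0.04 for Ifng and Tnf and -0.23 for Csf2 and Tnf (exact permutation tests, adjusted p = 0.825 for each). All 3 genes were found in 31 cells of KO-labelled recipients, where 16.9 were expected from independent shares, and in 20 cells of WT-labelled recipients, where 8.44 were expected. In most positive cells 1 of the genes was detected, 3389 and 3183 cells, with Ifng alone in 2848 and 2689. Of the Csf2-positive cells 52.8% and 45.1% also had Ifng, and of the Ifng-positive cells 6.63% and 4.02% had Csf2. By cluster, 63.9% of Csf2-positive Th17 cells had Ifng in KO-labelled recipients and 43.6% in WT-labelled recipients, against 52.7% and 32.8% of all Th17 cells.

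**Figure D4:**
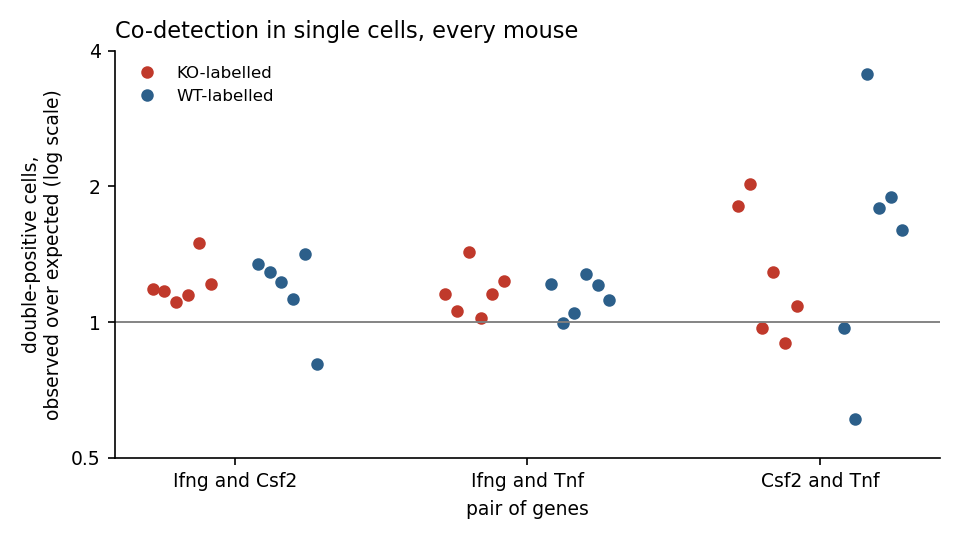
Double-positive cells observed over expected (y axis, log scale) for each pair of genes (x axis), 1 point per mouse, KO-labelled left of WT-labelled, with a line at 1. Points for Ifng with Csf2 and Ifng with Tnf lie above 1 in 11 of 12 mice each, and those for Csf2 with Tnf spread between 0.610 and 3.55.

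Measured in the same way, some other cytokines separated the members, given here as descriptions. Cells with Il4, the type 2 cytokine, held Ifng less often than expected, in 45 cells against 64.8 expected in KO-labelled recipients and 33 against 46.6 in WT-labelled recipients, above expectation in 1 of 12 mice. With Il13, another type 2 cytokine, Ifng was found in 8 cells against 17.7 expected and 11 against 22.6, above expectation in 0 of 12 mice. Csf2 went the other way, with Il4 in 17 cells against 7.43 expected and 9 against 6.01, and with Il13 in 16 against 2.53 and 15 against 4.03. Csf2 was above expectation with Il13 in 11 of 12 mice.

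Il22, which acts on epithelium, was found with Csf2 less often than expected, in 10 cells against 19.4 and 19 against 32.3, and above expectation in 1 of 12 mice. With Il17a, Csf2 was near expectation at 26 cells against 24.5 and 26 against 23.9. Ifng was above expectation with Il21 at 61 cells against 41.8 and 54 against 33.3, and with the chemokine Ccl4 at 204 against 159 and 517 against 455, in 12 of 12 mice for Ccl4. Lta, the neighbour of Tnf on chromosome 17 and a ligand of the same receptors, was found with Tnf in 31 cells against 20.8 and 52 against 28.1. Lta did not separate the members. It was also above expectation with Csf2, in 26 cells against 14.07 and 27 against 14.04. With Ifng it was found in 118 cells against 101 and 170 against 128.

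T cell receptor clonotypes come from receptor sequences, a measure that the choice of these genes did not use. Of 15640 thinned cells with a clonotype, 11717 belonged to clones of at least 2 cells of that mouse and 3923 to clones of 1 cell. Ifng was detected in 37.8% ± 4.51 of cells of expanded clones and 30.01% ± 4.70 of cells of single-cell clones (SD, n = 12 mice), higher in expanded clones in 12 of 12 mice (exact sign-flip permutation p = 0.000488, the smallest it can give, adjusted p = 0.00146 over 3 genes). Csf2 was detected in 4.22% ± 1.41 and 2.90% ± 1.47, higher in 9 of 12 mice (adjusted exact permutation p = 0.0139). Tnf was detected in 7.49% ± 1.04 and 7.44% ± 1.21, higher in 6 of 12 mice (adjusted exact permutation p = 0.868).

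With the split taken within clusters, expanded clones were higher by 4.31 ± 4.14 percentage points for Ifng, in 10 of 12 mice, and by 1.54 ± 1.31 for Csf2, in 11 of 12 (adjusted exact permutation p = 0.00659 for each). Without the split by cluster, expanded clones were higher by 5.71 percentage points in KO-labelled recipients and 9.82 in WT-labelled recipients for Ifng and 0.939 and 1.70 for Csf2. No difference between genotypes passed (adjusted exact permutation p = 0.359).

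**Figure D5:**
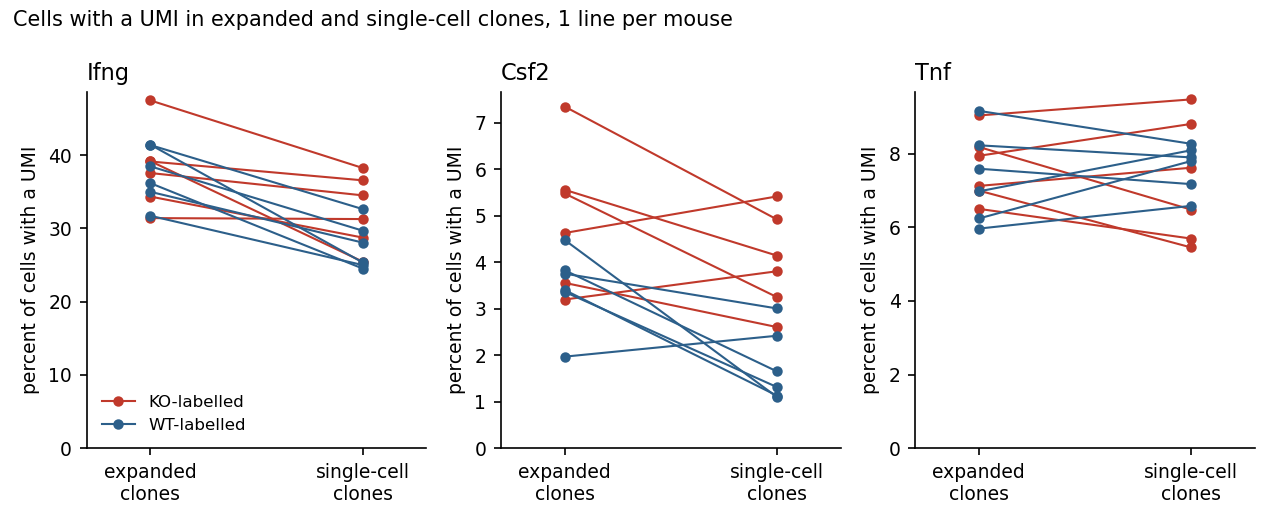
Percent of cells with a UMI of each gene, thinned to 1500 UMIs, in clones of at least 2 cells and in single-cell clones (x axis), 1 line per mouse, KO-labelled red and WT-labelled blue. The Ifng line falls to the right in 12 of 12 mice, the Csf2 line in 9 of 12 and the Tnf line in 6 of 12.

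Single clones, some of them 1 cell, held large parts of the Csf2 signal. In Th17 cells the clone with most Csf2 UMIs held 34.2% to 80.4% of them in KO-labelled recipients, with a median of 47.7%, and 22.1% to 43.0% in WT-labelled recipients, with a median of 29.7%. In mouse KO3, a clone of 11 Th17 cells held 333 of 414 Csf2 UMIs, and in mouse KO2, 1 cell held 69 of 86. The leading clone was also 1 Th17 cell in mice KO4, KO5 and WT5. Csf2-positive Th17 cells numbered 5 to 31 in KO-labelled recipients and 15 to 42 in WT-labelled recipients. The shares of the leading clones were not adjusted for these numbers, and their difference between genotypes was not tested. Leaving out the leading clone of each mouse, Csf2 in Th17 cells stood at 227, 138, 339, 497, 69.9 and 306 CPM in mice KO1 to KO6, against 84.3, 94.7, 436, 104, 121 and 37.0 CPM in mice WT1 to WT6. Over all cells without the leading clone it was 92.2, 72.2, 109.6, 185, 83.2 and 95.6 CPM, against 49.1, 56.6, 81.8, 41.6, 41.1 and 37.6 CPM, so 5 of 6 WT-labelled recipients were again below every KO-labelled recipient. For Ifng over all cells the leading clone held 4.22% to 19.97% of UMIs in KO-labelled recipients and 4.47% to 18.3% in WT-labelled recipients.

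Of the genes that act upstream of Ifng, 3 of 11 tested were higher in KO-labelled recipients and 1 was lower, beside 14.2% of all genes called, 694 higher and 711 lower. Their median log2 fold change was 0.14, and that of all genes tested was -0.000216. The receptor chains for interleukin 12 rose, Il12rb2 to 381 ± 76.0 CPM in KO-labelled recipients, against 173 ± 24.0 CPM in WT-labelled recipients (log2 fold change 1.10 ± 0.13, SE, edgeR adjusted p = 3.43e-05), and Il12rb1 by 0.73 (adjusted p = 0.000247). Jak2, the kinase that serves that receptor, rose by 0.76 (adjusted p = 0.00128). Eomes, a T-box factor that can induce Ifng, fell to 5.26 ± 2.48 CPM, against 47.6 ± 19.98 CPM (-3.21 ± 0.33, SE, edgeR adjusted p = 1.32e-05). Tbx21, which encodes T-bet and is named here after its values were seen, was at 66.9 ± 9.39 CPM and 63.7 ± 7.67 CPM (adjusted p = 0.884). At equal cluster weights, where 9.74% of all genes were called, 3 were higher and 1 lower.

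Of the interferon gamma receptor chains and targets, 7 of 21 tested were higher and 0 lower, beside 14.2% of all genes called in either direction, their median log2 fold change being 0.19, and 14 did not pass. Cxcl10, a chemokine induced by interferon, was at 164 ± 58.8 CPM in KO-labelled recipients and 59.7 ± 8.24 CPM in WT-labelled recipients (log2 fold change 1.42 ± 0.21, SE, edgeR adjusted p = 0.000299). Igtp, an interferon-induced GTPase, rose by 0.46 (adjusted p = 0.000225), Ifngr1, a receptor chain, by 0.28 (adjusted p = 0.0214) and Gbp3, a guanylate-binding protein, by 0.47 (adjusted p = 0.0333). At equal cluster weights, 1 was higher and 1 lower, beside 9.74% of all genes. Within unnamed 1 and within Th17 cells, where 4.65% and 5.09% of all genes were called by edgeR, 0 of 19 and 0 of 17 tested passed.

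Of the regulators of Csf2, 3 of 14 tested were higher and 4 lower, beside 14.2% of all genes called, with a median log2 fold change of 0.02. Batf, an AP-1 factor of Th17 cells, fell to 240 ± 48.6 CPM in KO-labelled recipients, against 402 ± 58.8 CPM in WT-labelled recipients (-0.78 ± 0.12, SE, edgeR adjusted p = 0.000488). Il1r1, the interleukin 1 receptor, fell by 1.45 on the log2 scale (adjusted p = 0.00399). Nfatc1, a calcium-regulated factor, rose by 0.36 (adjusted p = 0.00276), and Bhlhe40, which mouse helper T cells need to make Csf2, rose by 0.18 (adjusted p = 0.00876). At equal cluster weights, 2 were higher and 3 lower, beside 9.74% of all genes, and Bhlhe40 and Il1r1 did not pass (adjusted p = 0.366 and 0.0533).

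Of the Tnf receptor and NF-kB genes, 3 of 20 tested were higher and 2 lower, again beside 14.2% of all genes, with a median log2 fold change of 0.13. The NF-kB subunit Relb rose by 0.26 (adjusted p = 0.0306) and the adaptor Traf1 by 0.24 (adjusted p = 0.0123), while Birc2, an inhibitor of apoptosis in the receptor complex, fell by 0.31 (edgeR adjusted p = 0.00228) and Bcl3, a nuclear partner of NF-kB, by 0.28 (adjusted p = 0.0340). At equal cluster weights, 0 were higher and 2 lower, beside 9.74% of all genes.

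Of the genes for proteins that bind the AU-rich elements shown above, or that otherwise degrade cytokine messages, 2 of 13 tested were higher and 3 lower, beside 14.2% of all genes called, with a median log2 fold change of -0.03. Zfp36, which encodes tristetraprolin, fell to 247 ± 24.2 CPM in KO-labelled recipients, against 314 ± 27.9 CPM in WT-labelled recipients (-0.38 ± 0.07, SE, edgeR adjusted p = 0.00172). Its relative Zfp36l1 fell by 0.41 (adjusted p = 0.000507) and the ribonuclease gene Zc3h12d by 0.72 (adjusted p = 0.00162). Zc3h12a, which encodes the ribonuclease Regnase-1, rose by 0.30 (adjusted p = 0.00803), but not at equal cluster weights (adjusted p = 0.218). Zfp36l2, another relative of Zfp36 and named here after its values were seen, went the other way. It rose to 1159 ± 263 CPM, against 824 ± 131 CPM (0.45, edgeR adjusted p = 0.0323), and by 0.36 at equal cluster weights (adjusted p = 0.0308). At those weights, 1 gene of this list was higher and 3 were lower, beside 9.74% of all genes. Of other T cell cytokines, 1 of 15 tested was higher and 5 were lower, beside the same 14.2%, with a median log2 fold change of 0.01. Il2, the T cell growth factor, rose by 1.72 (adjusted p = 0.00167), while the chemokine genes Ccl4 (-1.80, adjusted p = 0.00420) and Ccl3 (-1.66, adjusted p = 0.00837) and Il22 (-1.61, adjusted p = 0.0197) fell in the edgeR test. At equal cluster weights, 1 was higher and 2 lower, beside 9.74% of all genes, and Ccl4, Ccl3 and Il22 did not pass.

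Across 80 sums of a mouse and a cluster, the pattern of log2(CPM + 1) most like that of Ifng among 5877 other genes was Icam1 (Pearson r = 0.69), followed by Cd69, Il18rap, Furin and Thy1 (r = 0.66 to 0.61). For Csf2 the order was Zap70 (r = 0.66), Cxcr6, Bcl2a1d, Tnfrsf1a and Ece1 (r = 0.66 to 0.64), where Bcl2a1d has near-identical copies that reads may not separate. For Tnf it was Jaml and Adgrg5 (r = 0.60 each), Ifng (r = 0.56), Aaas and Slc20a1 (r = 0.55 each). Between members, r was 0.56 for Ifng and Tnf, 0.38 for Ifng and Csf2 and 0.25 for Csf2 and Tnf. The sums share mice and 1 library, and these are descriptions.

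Myeloid cells, which also make Tnf, were checked by their markers. None of the 4 neutrophil markers was in the table. The 8 macrophage, monocyte or dendritic cell markers present summed to 122 to 165 CPM in KO-labelled recipients and 153 to 163 CPM in WT-labelled recipients, with 1 higher and 1 lower of 5 tested, beside 14.2% of all genes. In unnamed 1, Cst3 was at 113 CPM, Lyz2 at 4.42 CPM and Csf1r at 0.460 CPM. Their part in the Tnf counts was not tested.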

How the data were processed

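Colonic TCRb+CD4+ cells of 12 mice were pooled by hashtag into 1 single-cell library. The authors deposited raw UMI counts per gene and cell, which were used as deposited, together with per-cell annotation (mouse, genotype, clonotype and clusters at resolution 0.4), a mitochondrial percent per cell and a doublet score of at most 0.354. Cell Ranger 3.1.0, Seurat 3.1.5 and the builds GRCm38 and mm10 are named in the submitters' processing notes; the cell filter and doublet tool are not given in the sources used here, and no doublet caller was run.

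Counts were summed per mouse, or per mouse and cluster with at least 20 cells, and tested with edgeR 4.0.16 (R 4.3.3, TMM, filterByExpr, quasi-likelihood, two-sided, Benjamini-Hochberg over all genes tested, threshold 0.05), checked on simulated data. Differences between clusters were tested with limma 3.58.1 on log2 CPM (prior count 2) computed from the deposited counts. DESeq2 1.42.0 was an alternative. Shares, UMIs per positive cell and co-detection used cells thinned to 1500 UMIs, leaving out 491 and 407 shallower cells of KO-labelled recipients and WT-labelled recipients, and two-sided exact permutation over 924 assignments (smallest p 0.00216) or 4096 sign flips, in Python 3.11.15 with scipy 1.17.1. Mice are the replicates; the labels do not say whether they shared donors, and p-values measure the spread between these mice. Counting intervals were not used. The genes and the 6 lists (103 genes, 98 in the table) were chosen with earlier results of these data known. Of each list, up to 4 called genes with the smallest p were named, and for each cytokine the 5 genes most alike. Tbx21 and Zfp36l2 were named beside these after their values were seen.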

Additional observations from a re-analysis of the deposited data

Results flagged for a closer look

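In 13 of 102 groups of 4 to 6 mice, 1 mouse stood apart from the others by Dixon's test, which chance gives in about 1 of 20 groups. For Csf2 these were mouse WT3 in Th17 cells (592 CPM) and over all cells (118 CPM), mouse KO3 in cycling cells (428 CPM), mouse KO4 in regulatory cells (379 CPM) and mouse WT6 in unnamed 1 (250.4 CPM). Mouse KO1 was flagged for the share of its regulatory cells with a Csf2 UMI (1.79%), against 0% in mice KO2, KO5 and KO6. For Ifng it was mouse KO5 in cycling cells (2117 CPM), which also had the highest co-detection ratio of Ifng and Csf2 (1.50). For Tnf they were mouse WT6 in cycling cells (105.1 CPM) and, for shares of cells, mouse WT4 in Th17 cells (10.2%), mouse KO4 in recirculating cells (6.45%) and in unnamed 1 (12.7%), and mouse KO6 in regulatory cells (13.5%).

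The difference of Ifng between KO-labelled and WT-labelled recipients was lower in cytotoxic cells than in Th17 cells. The contrast was a log2 value of -1.12, tested with limma at an adjusted p of 0.00859. It does not separate the deletion from the donor population.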

How the results depend on the processing

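Of 963 alternative values for 96 results, 835 kept their direction and side of the threshold (or, for a count of genes, stayed within 1.5 times), and 44 changed sign, 0 of them in a result that passed either way. Leaving out each mouse in turn gave log2 fold changes over all cells of 0.32 to 0.52 for Ifng and 0.84 to 1.24 for Csf2, a Csf2 share difference of 1.10 to 1.76 percentage points (0.7001 when thinned to 500 UMIs), and differences in UMIs per positive cell of 0.524 to 0.939 for Ifng and 0.607 to 1.29 for Csf2. The higher Csf2 share in expanded clones was 0.816 percentage points, adjusted exact permutation p = 0.0623, when cells were thinned to 500 UMIs. Leaving out mice KO1 and KO2, an alternative chosen after seeing the data, gave 770 genes called over all cells in place of 1405, 175 in place of 276 in unnamed 1, 203 in place of 357 in unnamed 3 and 176 in place of 288 in cycling cells. With no filter on low counts, 307 in place of 191 genes were called in cytotoxic cells and 44 in place of 9 in regulatory cells, where leaving out 1 mouse gave 0 to 12. The cause of these changes was not tested. No paired analysis was possible because the numbers only name the hashtagged mice and link no KO-labelled recipient to a WT-labelled one. No alternative was run for the share held by the top 1% of cells, which was counted without thinning. Regulatory cells numbered 254 in KO-labelled recipients and 126 in WT-labelled recipients, and Csf2 and Tnf could not be tested there.

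The 44 changes of sign were in 15 results that did not pass. With each mouse left out in turn, log2 fold changes ran from -0.22 to 0.13 for Ifng in recirculating cells, -0.21 to 0.061 for Ifng in unnamed 1 and -0.20 to 0.086 for Tnf in cycling cells. Share differences ran from -0.335 to 2.46 percentage points for Ifng and -0.281 to 0.346 for Tnf over all cells, and for Ifng from -3.92 to 0.464 in unnamed 1, -0.534 to 2.35 in unnamed 3 and -0.195 to 3.80 in cycling cells. Differences in log2 co-detection ratio ran from -0.072 to 0.091 for Ifng and Csf2, -0.022 to 0.074 for Ifng and Tnf and -0.48 to 0.023 for Csf2 and Tnf, and the Tnf difference between expanded and single clones from -0.0997 to 0.197 percentage points. Thinned to 500 UMIs, share differences were -0.476 for Tnf over all cells, -0.0103 for Csf2 in unnamed 1, -0.175 for Ifng in unnamed 3, -0.534 for Tnf in cycling cells and -0.207 for Tnf between clones, and the log2 ratios -0.27 for Ifng and Csf2 and -0.054 for Ifng and Tnf. Unthinned, shares over all cells differed by -0.572 for Ifng and -0.841 for Tnf, and the log2 ratios by -0.16 and -0.073. The Tnf share difference over all cells was -0.111 at equal cluster weights, and that between clones -0.0573 with clones of at least 5 cells. Leaving out mice KO1 and KO2 gave 0.088 for Ifng in recirculating and 0.024 for Tnf in cycling cells, and a prior count of 0.5 gave -0.077 for the Csf2 contrast of unnamed 1 with unnamed 3.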
